A study of Mus musculus with 6 samples.

Results

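The genes described here build elastic fibres and the fibrillin microfibrils on which these fibres form. They are Eln, Fbn1, Fbn2, Fbln1, Fbln2, Fbln5, Efemp1, Efemp2, Emilin1 and Mfap2, 10 genes of the 22910 that the array reached through RefSeq accessions. The genes are listed by name, with no threshold on their values, and 16 probes carried an accession of one of them. Expression was measured in 2D-MAOs, airway epithelial cells of C57BL/6 mouse lung that had been expanded as organoids before being spread flat on type I collagen. TGF-β1 was added to 3 cultures from day 3, and 3 control cultures received none. As the protocol reads, both groups were kept from day 3 in medium lacking noggin, an antagonist of BMPs, and A83-01, an inhibitor of the TGF-β type I receptor. All cultures were collected on day 7, and RNA of each was hybridised to 1 array. The cultures are described as biological replicates, but whether they came from separate animals is not stated, so the p-values measure the spread between these cultures. The concentration of TGF-β1 is not named for these cultures.

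An elastic fibre has a core of elastin, whose soluble precursor is cross-linked by lysyl oxidases, and an outer layer of microfibrils made of fibrillins. Fibulins carry elastin and lysyl oxidases onto the microfibrils, and the microfibrils also hold latent TGF-β through its binding proteins. In the lung these proteins are known as products mainly of fibroblasts and smooth muscle, and TGF-β1 is known to raise several of them in fibroblasts. The question here was which of the genes were expressed in the airway epithelial layer and which differed after TGF-β1.

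On each array between 55.0% and 59.0% of the probes were well above background, the mark the image software gives to a spot clearly brighter than its surroundings. All 6 arrays lay on 1 slide, where slide row 2 held replicate 3 of both groups and slide row 1 held replicates 1 and 2. TGF-β1 replicate 3 stood apart from its group. Across the genes tested it correlated at 0.986 to 0.987 with the other TGF-β1 arrays, which correlated at 0.996 with each other, and at 0.987 to 0.989 with the controls. For the members and the partner genes named below, calls that change without it are given with and without it. Signals below are log2 values after quantile normalisation, and a difference is TGF-β1 minus control on that scale. Probes differ in brightness for reasons other than RNA amount, so each level is compared between arrays and not with that of another gene. A gene was tested if 3 or more of the 6 arrays had its probe well above background, and was called if it differed by 2-fold or more with a Benjamini-Hochberg adjusted p under 0.05 from limma over all 14345 genes tested.

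The 5 fibulin genes and Fbn2 were well above background on all 6 arrays. Fbln5 and Fbln2 were higher on all 3 TGF-β1 arrays than on all 3 control arrays, by 1.75-fold and 2.53-fold. Fbln1 was higher on 2 TGF-β1 arrays only. Elastin itself was dim and did not differ beyond the spread, Fbn1 was well above background on 2 TGF-β1 arrays and on none of the other 4, and Emilin1 and Mfap2 were not well above background on any array.

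By the limma call, 0 of the 7 members tested were higher and 0 were lower, where 1.19% and 0.188% of all genes tested were called in these directions. At an unadjusted limma p under 0.05 there were 2 of 7, Fbln2 and Fbln5, where 22.2% of all genes tested passed, so the members' share was near the background. With an adjusted p under 0.05 from limma and no 2-fold minimum there was 1, Fbln5, where 2.04% of all genes tested passed. The methods' t-test called 1, Fbln2, at its unadjusted threshold with 2-fold, where 2.17% of all genes tested were called higher, and 0 after Benjamini-Hochberg adjustment. The TGF-β1 and control arrays did not overlap in 2 of the 7 members, both with TGF-β1 higher, against 12.9% of all genes tested, and no member had all TGF-β1 arrays lower, against 13.5%. The median difference was 0.38 over the 7 members and -0.03 over all genes tested. Without TGF-β1 replicate 3 the calls were 2 members higher, Fbln1 and Fbln2, where 3.86% of all genes tested were called higher and 1.09% lower. The 3 members not tested, Fbn1, Emilin1 and Mfap2, enter none of these counts.

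**Figure D1:**
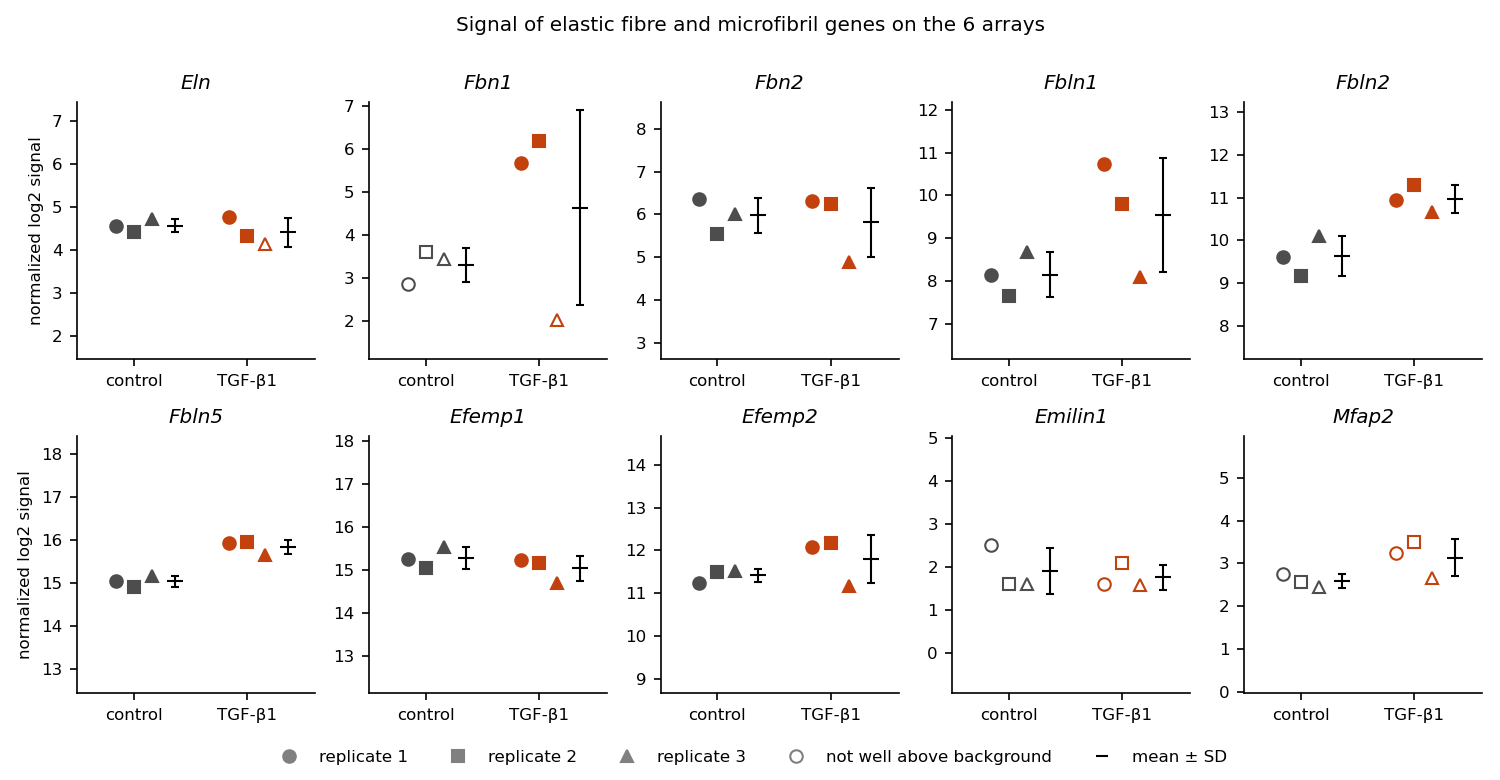
Normalised log2 signal of the 10 genes, by the brightest probe of each, on the 3 control and 3 TGF-β1 arrays. Each panel spans the same number of log2 units, symbols mark the replicate, open symbols mark spots not well above background, and bars give the mean ± SD. The groups lie apart for Fbln2 and Fbln5, and TGF-β1 replicate 3 lies low for Fbn1, Fbn2, Fbln1 and Efemp2.

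Fbln5 encodes fibulin 5, a short fibulin that binds elastin and integrins and is needed for elastic fibre assembly. Its signal was 15.04, 14.91 and 15.17 on the control arrays and 15.93, 15.95 and 15.65 on the TGF-β1 arrays of replicates 1, 2 and 3. Every TGF-β1 array was brighter than every control array, and the ratio of the spot to its local background was 890 to 997 for controls and 1302 to 1606 for TGF-β1 arrays. The difference was 0.81 (SE 0.13, 95% interval 0.50 to 1.12, limma adjusted p = 0.0361). The exact two-sided permutation test gave p = 0.1, the smallest that 3 arrays against 3 allow. Scaled to the 75th percentile of each array, the difference of Fbln5 was 0.54 and its adjusted p from limma 0.0566. With each array left out in turn it lay between 0.74 and 0.90, and the limma adjusted p exceeded the threshold when replicate 1 or 2 of either group was the one omitted, at 0.135 to 0.165.

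Fbln2 encodes fibulin 2, a long fibulin that binds fibronectin, fibrillin and basement membrane proteins. Its signal was 9.62, 9.17 and 10.10 in controls and 10.95, 11.30 and 10.65 after TGF-β1. The lowest TGF-β1 array was 10.65 and the highest control array 10.10, so the groups did not overlap. The difference was 1.34 (SE 0.27, 95% interval 0.70 to 1.98, limma adjusted p = 0.0627). It passed the adjusted threshold without TGF-β1 replicate 3 (1.50, limma adjusted p = 0.0248), without control replicate 3 (1.57, 0.0455) and with normexp background (1.27, 0.0264), and not without any of the other 4 arrays, where the adjusted p was 0.164 to 0.218. The exact two-sided permutation p was again 0.1.

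The start regions of Fbln5 and Fbln2, the members whose groups lay apart, are shown together with that of Fbn1, detected on TGF-β1 arrays alone. The windows reach from 250 bases before to 50 after the start and come from RefSeq on GRCm38.p6, printed 5′ to 3′. Capitals mark CAGAC, a half-site read by SMAD proteins, TGANTCA, the AP-1 motif, and GGGCGG, the GC box, each on either strand, with no base shared by different motifs. Fbln5 has a further window not printed. The windows lie at chr12:101819070-101819369 (minus strand) for Fbln5, chr6:91212514-91212813 (plus strand) for Fbln2 and chr2:125506389-125506688 (minus strand) for Fbn1.
Fbln5: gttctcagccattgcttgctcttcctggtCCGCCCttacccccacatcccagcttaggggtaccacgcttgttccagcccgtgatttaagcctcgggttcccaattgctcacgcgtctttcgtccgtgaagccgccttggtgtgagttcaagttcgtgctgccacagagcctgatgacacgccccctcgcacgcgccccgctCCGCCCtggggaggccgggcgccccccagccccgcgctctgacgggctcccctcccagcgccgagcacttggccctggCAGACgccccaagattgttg
Fbln2: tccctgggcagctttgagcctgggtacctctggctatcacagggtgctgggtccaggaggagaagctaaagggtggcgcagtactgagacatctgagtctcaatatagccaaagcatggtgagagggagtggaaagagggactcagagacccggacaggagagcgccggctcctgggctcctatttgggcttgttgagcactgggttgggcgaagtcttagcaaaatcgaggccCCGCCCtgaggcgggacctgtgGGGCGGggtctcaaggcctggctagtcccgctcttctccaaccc
Fbn1: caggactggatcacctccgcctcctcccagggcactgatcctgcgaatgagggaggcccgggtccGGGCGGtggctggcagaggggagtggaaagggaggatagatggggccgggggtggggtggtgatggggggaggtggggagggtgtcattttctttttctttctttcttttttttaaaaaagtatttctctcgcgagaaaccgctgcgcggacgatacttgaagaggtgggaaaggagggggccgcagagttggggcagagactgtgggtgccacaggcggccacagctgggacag
The printed Fbln5 window held 1 CAGAC and 2 GGGCGG matches, the Fbln2 window 2 GGGCGG matches, and the Fbn1 window 1 GGGCGG match. The Fbln5 window not printed held 2 CAGAC and 0 GGGCGG matches. Among the 10 members, 8 had windows, 13 in all, some of them overlapping, and Eln and Fbn2 had none. CAGAC was in 8 of the 13 windows and in 49.6% of all 32851 promoter windows of the table. GGGCGG was in 9 of the 13 and in 35.7% of all. TGANTCA was in 1 of the 13, that of Efemp1, and in 7.81% of all. These matches describe letters and not bound sites.

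Fbln1 encodes fibulin 1, a long fibulin of elastic fibres and basement membranes. Its signal was 8.14, 7.65 and 8.69 in controls and 10.72, 9.81 and 8.10 after TGF-β1. TGF-β1 replicates 1 and 2 lay above every control, while replicate 3 lay within the control range. The mean difference of 1.38 therefore had a wide interval, -0.14 to 2.90 (SE 0.64, limma adjusted p = 0.258). Without TGF-β1 replicate 3 it was 2.11 (SE 0.38, limma adjusted p = 0.0228). Without TGF-β1 replicate 1 it was 0.79 (limma adjusted p = 0.575). In slide row 1 alone, with replicates 1 and 2 of both groups, the difference was 2.37 (limma adjusted p = 0.0183), where 4.37% of all genes tested were called higher, and between the replicate 3 arrays in slide row 2, which allow no test, it was -0.59.

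Efemp2 encodes fibulin 4, a short fibulin needed for elastin cross-linking. Its signal was 11.25, 11.49 and 11.53 in controls and 12.07, 12.18 and 11.16 after TGF-β1. TGF-β1 replicates 1 and 2 were above all controls and replicate 3 was below all of them. The second probe, a dimmer one, had the same order, with 6.43 to 6.78 in controls and 6.87, 6.98 and 6.13 after TGF-β1. The difference of 0.38 (SE 0.27, 95% interval -0.27 to 1.03) had a limma adjusted p of 0.423, and of 0.0244 at a difference of 0.70 without TGF-β1 replicate 3. By slide row it was 0.75 in row 1 and -0.37 in row 2.

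Efemp1 encodes fibulin 3, a short fibulin found in basement membranes as well as elastic tissue. Its signal was 15.25, 15.05 and 15.55 in controls and 15.24, 15.16 and 14.71 after TGF-β1. Only TGF-β1 replicate 3 left the control range, downwards. The difference was -0.24 (SE 0.19, 95% interval -0.70 to 0.21, limma adjusted p = 0.466). The second probe gave 13.56, 13.21 and 13.64 in controls and 13.35, 12.98 and 12.63 after TGF-β1, with replicates 2 and 3 below all controls, and a difference of -0.48 (limma adjusted p = 0.202). With scaling to the 75th percentile the first probe gave -0.52 (limma adjusted p = 0.111). Among the short fibulins, then, the groups lay apart for Fbln5 and overlapped for Efemp1 and Efemp2.

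**Figure D2:**
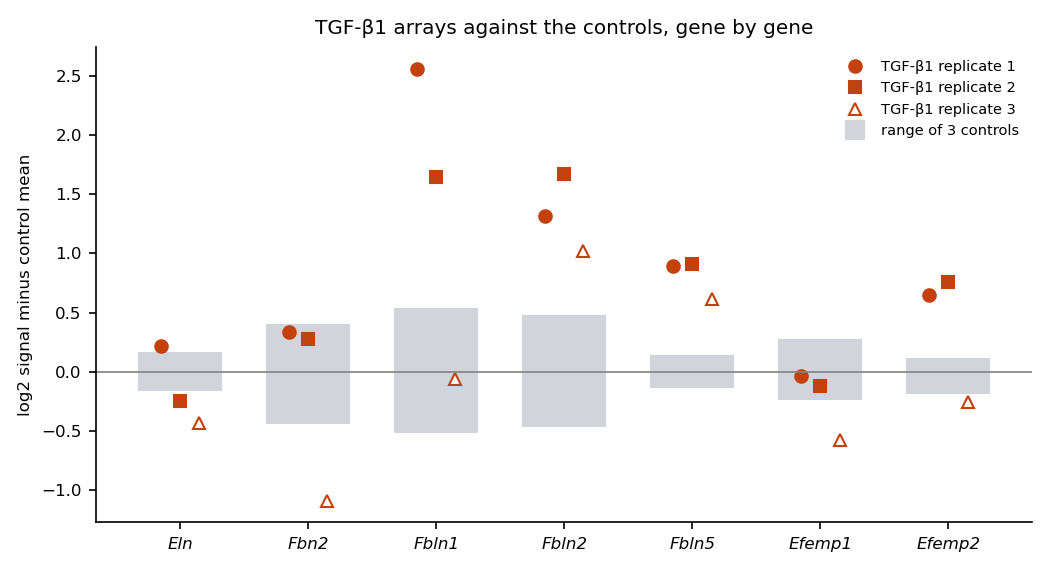
Signal of each TGF-β1 array minus the mean of the 3 controls, in log2 units, for the 7 genes tested, with the control range as a grey box. All 3 TGF-β1 arrays lie above the box for Fbln2 and Fbln5, while for Fbln1 and Efemp2 replicates 1 and 2 lie above it and replicate 3 does not.

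Fbn1 encodes fibrillin 1, the main microfibril protein of adult tissue and the gene altered in Marfan syndrome. The brighter of its probes read 2.85, 3.61 and 3.45 in controls and 5.68, 6.18 and 2.02 after TGF-β1. It was well above background on TGF-β1 replicates 1 and 2 and on none of the other 4 arrays. The other probe showed the same arrays, with 1.67 to 1.74 in controls and 5.17, 5.17 and 1.77 after TGF-β1. On the arrays where it was measured, the brighter Fbn1 spot reached 3.43 times its local background. Because no control array measured it, only a bound on the fold can be given, taken against the level at which spots of each array become well above background, and 2 of the 3 TGF-β1 arrays measured the gene. The mean of all 3 TGF-β1 arrays was 1.57-fold above that level by the brighter probe and 1.04-fold by the other. These are not strict lower bounds, because replicate 3 entered at an unmeasured reading. With no filter, the limma difference of the brighter probe was 1.33 (SE 1.18, adjusted p = 0.626). Without TGF-β1 replicate 3 the bounds were at least 3.88-fold and 2.28-fold. Fbn1 was detected on too few arrays to be tested in the main fit.

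Fbn2 encodes fibrillin 2, which is used mostly in development. Its brighter probe read 6.37, 5.55 and 6.02 in controls and 6.31, 6.25 and 4.89 after TGF-β1. TGF-β1 replicates 1 and 2 lay within the control range and replicate 3 below it, and the spot was well above background on all 6 arrays. The difference was -0.16 (SE 0.41, 95% interval -1.14 to 0.82, limma adjusted p = 0.833), and it was 0.30 without TGF-β1 replicate 3. No array had the other probe well above background. The fibrillins differed in detection, Fbn2 being measured on all 6 arrays and Fbn1 on 2.

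Eln encodes tropoelastin, the precursor of elastin. It was dim, at 4.55, 4.41 and 4.72 in controls and 4.77, 4.31 and 4.13 after TGF-β1, where the lowest level well above background on an array was 3.47 to 4.19. TGF-β1 replicate 3 was the 1 array on which it was not well above background. The ratio of the spot to its local background was 1.76 to 1.91 for controls and 1.67 to 2.24 for TGF-β1 arrays, and no array had the second Eln probe well above background. The groups overlapped, with a difference of -0.15 (SE 0.19, 95% interval -0.60 to 0.29, limma adjusted p = 0.637). This interval holds no change of 2-fold in either direction. It describes a spot signal so near background that a 2-fold change of Eln RNA is not excluded.

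Emilin1 encodes an elastin interface protein that limits TGF-β maturation, and Mfap2 encodes MAGP1, a small protein bound to fibrillin. No array had either gene well above background. The Emilin1 probe read 1.60 to 2.53 in controls and 1.59 to 2.10 after TGF-β1. The brighter Mfap2 probe read 2.45 to 2.76 and 2.66 to 3.50, and the other 1.70 to 2.39 and 1.64 to 2.11. With neither group above background, no fold is given.

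TGF-β1 replicate 3 was the lowest of the TGF-β1 arrays in 7 of the 7 members tested, where it was the lowest in 36.5% of all genes tested. Without it 5 of the 7 members were higher, 4 of them with an adjusted p under 0.05 from limma, namely Fbln1, Fbln2, Fbln5 and Efemp2, where 15.4% of all genes tested passed. The median difference was then 0.70, against -0.04 over all genes tested. The 2 that were lower, Eln at -0.02 and Efemp1 at -0.08, had limma adjusted p of 0.957 and 0.762. What sets this culture apart from the other TGF-β1 cultures was not tested.

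**Figure D3:**
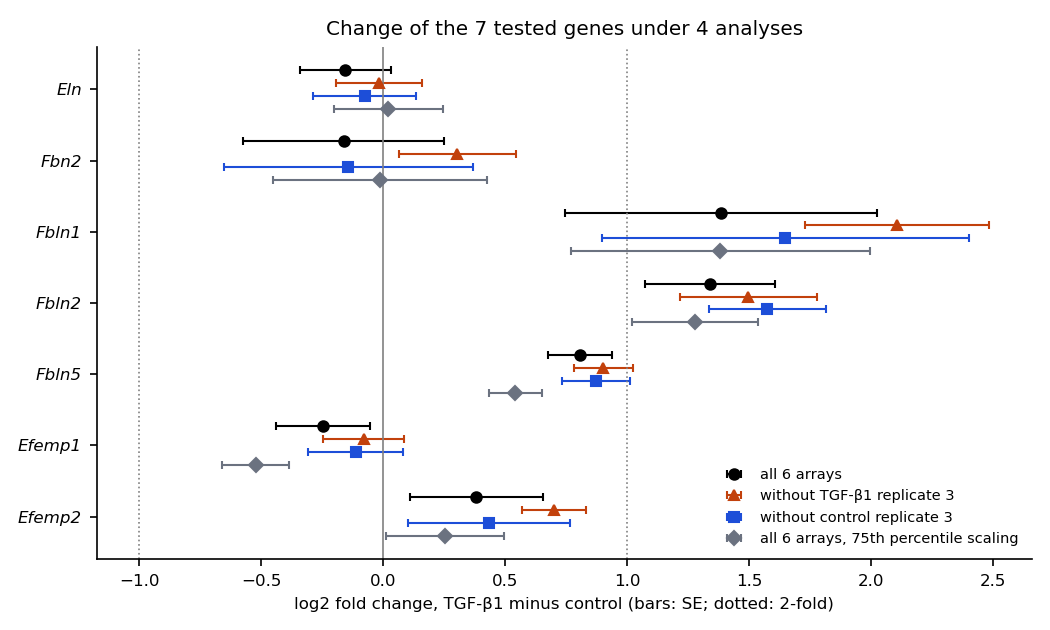
Log2 fold change of the 7 genes tested, TGF-β1 minus control, with its standard error, from all 6 arrays, without either replicate 3 array, and with scaling to the 75th percentile. Dotted lines mark 2-fold. Fbln2 lies past 2-fold in all 4 analyses, Fbln5 short of it in all 4, and Fbln1 moves from 1.38 to 2.11 without TGF-β1 replicate 3.

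Genes that work around elastic fibres were read beside the members. Of 66 partner genes in 7 lists written from general knowledge, 49 were tested. Of these, 8 were called higher and 1 lower, where 1.19% and 0.188% of all genes tested were called. The same shares stand beside the counts of each list below. As the lists were chosen with earlier results of these data known, these counts are not an independent result. Among 9 tested genes of microfibril-associated and latent TGF-β binding proteins, 2 were called higher and 1 lower, with a median difference of 0.80. Ltbp2, a microfibril protein that does not bind latent TGF-β and takes part in elastic fibre assembly with fibulin 5, differed by 4.03 (limma adjusted p = 0.00316), from 3.25, 4.41 and 3.76 in controls to 7.51, 8.08 and 7.92. It was well above background on 1 control array and on all 3 TGF-β1 arrays, so it was tested through the group in which it was high, the size of its difference rests on control spots mostly near background, and with normexp background it was 1.77. Fbln7, a further fibulin gene, differed by 1.28 (limma adjusted p = 0.0439), and Emilin2, a relative of Emilin1, by -1.25 (0.0337). Of those not called, Ltbp1, Ltbp4 and Ltbp3, which bind latent TGF-β, differed by 1.81 (limma adjusted p = 0.0528), 1.26 (0.0798) and 0.80 (0.0462). Without TGF-β1 replicate 3, Ltbp1 and Ltbp4 were called, at 2.08 (limma adjusted p = 0.0148) and 1.55 (0.00942). Ltbp3 was not, at 0.86. Of all genes tested, 3.86% were called higher without that array. Emilin2 read 7.08, 6.61 and 6.63 in controls and 5.46, 5.25 and 5.85 after TGF-β1, with no overlap, and its difference was -0.64 with normexp background.

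The lysyl oxidases cross-link elastin and collagen. Of 4 tested, 2 were called higher, where 1.19% of all genes tested were, and the median difference was 1.28. Lox differed by 3.13 (limma adjusted p = 0.0112), with 8.61 to 9.64 in controls and 11.61 to 12.59 after TGF-β1. Loxl1, which is known to be guided to elastin by fibulin 5, differed by 1.77 (limma adjusted p = 0.0425), from 4.73, 5.46 and 4.79 to 7.02, 7.10 and 6.17, but by 0.85 with normexp background. Loxl2 and Loxl4 were not called, at 0.80 and -0.51. Of the scaffold and proteoglycan genes 1 of 6 was called, Fn1, the gene of fibronectin on which fibrillin is deposited, at 2.22 (limma adjusted p = 0.0279). Hspg2, the gene of perlecan, Dcn and Bgn were not called, at 1.80, 1.00 and -0.95. With TGF-β1 replicate 3 left out, Hspg2 was called higher, at 2.39 (limma adjusted p = 0.00465), and Bgn lower, at -1.15 (0.0289). Dcn was still not called, at 1.47 (0.0547). Of the receptors 1 of 10 was called, Itgb3, the β3 integrin subunit, at 2.73 (limma adjusted p = 0.0141), and the other 9 had differences of 0.04 to 1.23, the larger ones those of Itgb6 at 1.23, Itga5 at 0.99 and Itgb5 at 0.75. Itgb6 and Itga5 were called without TGF-β1 replicate 3, at 1.67 (limma adjusted p = 0.00409) and 1.13 (0.0183), and Itgb5 was not, at 0.87.

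Of 6 tested proteases that degrade elastin, 2 were called higher, where 1.19% of all genes tested were. Mmp12, the macrophage elastase, read 3.72, 4.47 and 6.01 in controls and 8.73, 8.64 and 8.28 after TGF-β1, a difference of 3.82 (limma adjusted p = 0.0216). It was not well above background on control replicate 1, so the size of that difference rests in part on a spot near background. Mmp10, a stromelysin, differed by 4.47 (limma adjusted p = 0.0016). With normexp background the differences of Mmp12 and Mmp10 were 2.16 and 2.98. Elane, Mmp14 and Ctsk were not called, at -0.56, 0.42 and 0.30. Of the 7 elastase inhibitors tested, 0 were called by limma, 2 had an unadjusted p under 0.05, near the 22.2% of all genes tested, and 1, Timp1, was called without TGF-β1 replicate 3. By size of difference they were led by Timp1 at 2.04 (limma adjusted p = 0.0597), Serpinb1a at 0.60 (0.319) and Serpina1b at -0.44 (0.193). Of the 7 genes of fibrillin processing and ADAMTS-type regulation, 0 were called by limma and 2 had an unadjusted p under 0.05, again near that share. Furin, a protease that trims profibrillin, differed by 0.82 (limma adjusted p = 0.0475), Adamts17 by -0.76 (0.0979) and Adamtsl1 by -0.52 (0.414). Of the 9 calls, those of Ltbp2 and Mmp10 held with each of the 6 arrays left out, that of Lox with 4, that of Itgb3 with 3, those of Fn1 and Mmp12 with 2 and those of Fbln7, Emilin2 and Loxl1 with 1.

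**Figure D4:**
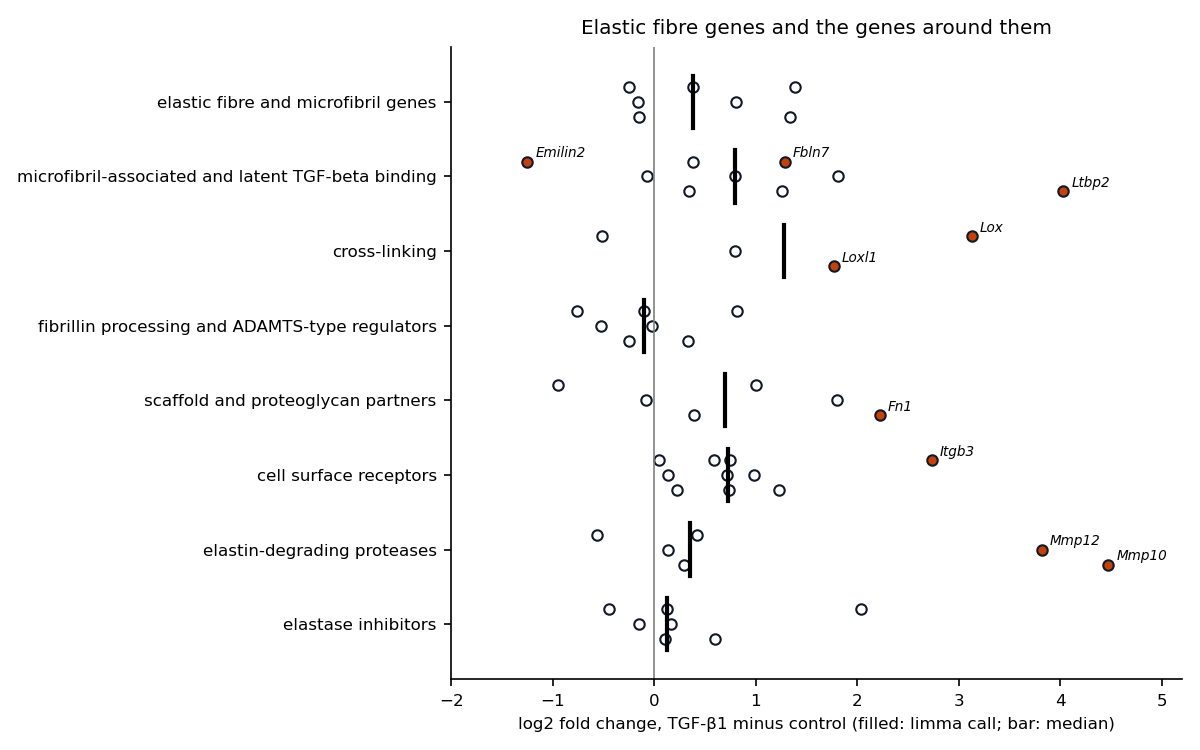
Log2 fold change, TGF-β1 minus control, of the 7 members tested and of the 49 partner genes by list. Each circle is a gene, filled circles were called by limma and are named, and the bar is the median of the list, at 0.38 for the members and 1.28 for the cross-linking genes.

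Markers were used to check what cells the cultures held, and in bulk RNA more cells of a type and more RNA per cell cannot be told apart. All 10 airway epithelial markers were well above background on all 6 arrays, among them Epcam and Cdh1, but they did not move together. Foxj1, of ciliated cells, differed by 1.47 (limma adjusted p = 0.00239), Krt5, of basal cells, by 1.37 (0.178) and Scgb1a1, of club cells, by -2.27 (0.158), these being named after their values were seen. Of 10 fibroblast markers, 3 were well above background on all 6 arrays and 5 on none, namely Col3a1, Lum, Tcf21, Twist2 and Pdgfrb. Pdgfra read 6.30 to 6.65 in controls and 6.43 to 7.00 after TGF-β1, and Col1a1 was well above background on 0 control and 3 TGF-β1 arrays. The summed level of the fibroblast list was 9.20 to 9.35 in controls and 11.40, 10.24 and 9.47 in TGF-β1 replicates 1, 2 and 3. Fbln1 also had this order. Dcn, a matrix gene of this list and the main part of the sum, read 11.10, 9.68 and 8.98 there. Col1a1 shared the order at 5.60, 5.11 and 4.55. Col1a2 and Pdgfra did not, at 4.89, 5.48 and 5.38 and at 7.00, 6.43 and 6.63. Thy1, also of this list and named like Dcn and Col1a2 after its values were seen, read 4.14 to 4.67 in controls and 8.19, 7.65 and 4.60 after TGF-β1, high on the same TGF-β1 arrays as Fbn1. The part of such cells in the Fbln1 and Fbn1 values was not tested. Of 6 smooth muscle markers 3 were well above background on no array, with Myh11 and Des among them, and the summed level was 13.38 to 14.09 in controls and 13.63 to 14.15 after TGF-β1. Acta2 read 13.32 to 14.05 in controls and 13.53 to 13.94 after TGF-β1. The other detected ones, also named after their values were seen, were Cnn1, which differed by 2.13 (limma adjusted p = 0.0231), and Tagln, which read 8.22 to 8.64 in controls and 11.04, 10.86 and 9.37 in TGF-β1 replicates 1, 2 and 3, a difference of 2.00 (limma adjusted p = 0.0735). Replicate 3 was the lowest TGF-β1 array for Tagln as for the members, and the part of these genes' cells in the members' values was not tested. Cdh5 and 3 further endothelial markers of 6 were well above background on no array, Pecam1 was measured at 6.03 to 6.32, and the endothelial sum was 6.43 to 6.67 in controls and 6.61 to 6.82 after TGF-β1. Ptprc, the pan-leukocyte gene, and 2 more of 6 leukocyte markers were well above background on no array. Cd68 read 10.39 to 11.35 in controls and 11.57 to 12.19 after TGF-β1, a difference of 0.90 (limma adjusted p = 0.147). The other detected ones, named after their values were seen, were Csf1r at 11.99 to 12.71 and Cd3e at 7.78 to 8.39. They differed by 0.01 and -0.24. The leukocyte sum was 12.63 to 13.13 in controls and 13.05 to 13.30 after TGF-β1. The part of such cells in the Mmp12 values was not tested. Of the mesothelial list, Wt1 and 2 others of 4 were well above background on no array, and Msln was measured on all 6 arrays at 17.05 to 17.39.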

How the data were processed

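Total RNA of 3 control and 3 TGF-β1-treated cultures was labelled with Cy3 and hybridised to Agilent mouse 8x60K arrays. The authors deposited Feature Extraction 11.0.1.1 output, whose processed signal is a linear intensity per spot, corrected for background and not yet normalised between arrays. Here control spots and spots marked as outliers were left out, spots of a probe were averaged, and log2 intensities were quantile-normalised, as the methods of the study state. Of 56599 probes, 32991 matched 1 gene through RefSeq accessions, 22910 genes in all. Probes were kept where 3 or more of the 6 arrays had them well above background, and the probe with the highest mean stood for its gene, leaving 14345 genes. TGF-β1 was compared with control by limma 3.58.1 in R 4.3.3 with Benjamini-Hochberg adjustment. The script was tested on simulated data. Intervals are at 95%. The number of arrays, 3 a group, limits the precision. No spot was saturated.

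The 10 members and all lists were chosen with earlier results of these data known. Named partner genes are those called and up to 3 others per list with the largest change among those measured on all 6 arrays, and named markers are the first 2 of each list, with exceptions stated. The partner and marker lists came from general knowledge. The methods' t-test was run on the same values. Alternatives changed the background, normalisation, filter, probe choice, threshold, variance prior, array weights, blocks and arrays used. Whether replicate numbers pair the arrays is not stated, and the main fit left pairing out.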

Additional observations from a re-analysis of the deposited data

How the results depend on the processing

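With 3 arrays a group, and Eln and Fbn1 near background, small differences could not be resolved. Over the 7 genes tested and the alternatives run, 119 tested fold changes kept direction and side of the threshold, 12 passed it only under the alternative and 8 changed direction. Within slide row 2, with no test, 5 kept their direction and 2 did not. The cause was not tested. The direction changed for Eln with 75th percentile scaling (0.022), array weights (0.026) and within slide row 1 (0.064), for Fbn2 with array weights (0.10), within slide row 1 (0.32), without control replicate 1 (0.034) and without TGF-β1 replicate 3 (0.30), in a leave-one-out range of -0.41 to 0.30, for Efemp1 within slide row 1 (0.053), and within slide row 2 for Fbln1 (-0.59) and Efemp2 (-0.37). No member was called lower under any alternative run.

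The limma count of members called higher, 0 from all arrays, was 0 to 2 with 1 array left out. It was 1 with normexp background, with no 2-fold minimum, with an unadjusted p, with the unadjusted t-test of the methods, and with a trended robust prior, and 2 with array weights and within slide row 1. With probes as the unit it was likewise 0 to 2 with 1 array left out, 1 under those same settings and with all 6 arrays required above background, and 2 with array weights and within slide row 1.

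Over all genes, 171 were called higher and 27 lower, and with 1 array left out 49 to 553 and 7 to 156. TGF-β1 replicate 3 gave the upper ends. The counts were 49 and 11 with no filter, 385 and 108 with an unadjusted p, 312 and 76 with the unadjusted t-test of the methods, 4 and 1 with it adjusted, 594 and 213 with array weights, and 627 and 234 within slide row 1. Lower calls were 17 with normexp background, 58 with no 2-fold minimum and 45 with slide row as a block.

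Of the partner genes, 8 were called higher and 1 lower, and with 1 array left out 2 to 14 and 0 to 2. The counts were 2 and 0 with no filter, 0 and 0 with the adjusted t-test, 16 and 2 with array weights, and 15 and 2 within slide row 1. An unadjusted p gave 13 higher, and normexp background 0 lower.

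Same-numbered arrays deviated together with correlations of -0.0079, 0.333 and -0.047, and the other pairs with -0.37 to 0.25. With 3 arrays a group these values cannot decide whether the numbers pair the cultures. With the replicate block 85 genes were called higher over all genes, 3 partner genes higher and 0 lower, and 0 members, and the adjusted p of Fbln5 from limma was 0.108.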
